A study of Homo sapiens with 6 samples.

Results

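The DNA double-strand break repair genes are a group of 34 genes named by symbol, and 31 of them had a named probe set on the array, out of 17687 named genes in all. Each of the 31 had 1 probe set. *MDC1*, *BRCA2* and *RBBP8* are not analysed here. The group was divided by role into 11 genes of break sensing and signaling, 12 of homologous recombination and 8 of end joining. A double-strand break is bound within moments by the *MRE11*, *RAD50* and *NBN* complex, which recruits the kinase *ATM*, while *ATR* answers to single-stranded DNA. These kinases phosphorylate the histone variant *H2AX* around the break and activate the checkpoint kinases *CHEK1* and *CHEK2*. The break is then closed either by end joining, in which the Ku proteins and *PRKDC* hold the ends for ligation by *LIG4* with *XRCC4*, or by homologous recombination, in which *BRCA1*, *PALB2* and their partners act on resected ends to copy the sister chromatid in S and G2 phase. The family is best known in breast tissue because inherited loss of several of its recombination genes predisposes to breast cancer.

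MDA-MB-231, a triple-negative breast cancer line that is long established and carries mutant p53, was transfected with the pCIRC2T7-circAAGAB plasmid (*circAAGAB* overexpression) or with the control plasmid (empty vector), and RNA was taken after 24 h. Each group had 3 Clariom S arrays, numbered as replicates 1 to 3 in both groups. Values are log2 signals after robust multichip averaging (RMA), so a difference of 1 is a doubling. The labels and methods describe no irradiation or other DNA-damaging agent for the array samples, although other experiments of the study used irradiation. The methods speak in general of independent experiments but do not tie this to the arrays, so p-values measure only the spread between these arrays, which may be technical. MDA-MB-231 is 1 line, and a signal is an average over all cells of a sample, transfected or not. With bulk RNA, fewer cells in a cycle phase and less RNA per cell cannot be told apart.

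*AAGAB*, whose exons make up the circular RNA, had signals of 10.97, 11.75 and 11.11 in replicates 1, 2 and 3 of *circAAGAB* overexpression, against 7.71, 7.56 and 7.73 with empty vector (difference 3.61, limma adjusted p = 0.00319), so the labels held in every array. This probe set does not separate the circular from the linear RNA. All 8 MDA-MB-231 markers lay above 4.65, the 95th percentile of 348 olfactory receptor genes, used as a background gauge. Luminal breast markers were above it in 3 of 7 cases, blood cell markers in 2 of 7 and fibroblast markers in 3 of 6. *PGR*, *CDH1*, *PTPRC* and *LUM* were below it. Above it were *KRT19*, with means of 9.45 with overexpression and 9.60 with empty vector, *GATA3* (6.32 and 6.11) and *CD14* (5.997 and 5.86). The highest mean of a fibroblast marker was 7.30. The replicate 1 arrays had narrower distributions than the others, with SDs over all probe sets of 2.08 for *circAAGAB* overexpression and 2.11 for empty vector, against 2.17 to 2.21 for the other 4 arrays.

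The mean signals of the 31 repair genes over the 6 arrays lay between 4.39 for *ATR* and 10.49 for *XRCC6*, and 30 of the 31 were above the background gauge. The exception was *ATR*, whose values are therefore close to background. The median gene stood at percentile 73.1 of all probe sets, and 11 genes were in the brightest of 5 equal bins. Probe sets differ in affinity, so signals are compared below between arrays for 1 gene and not between genes.

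**Figure D1:**
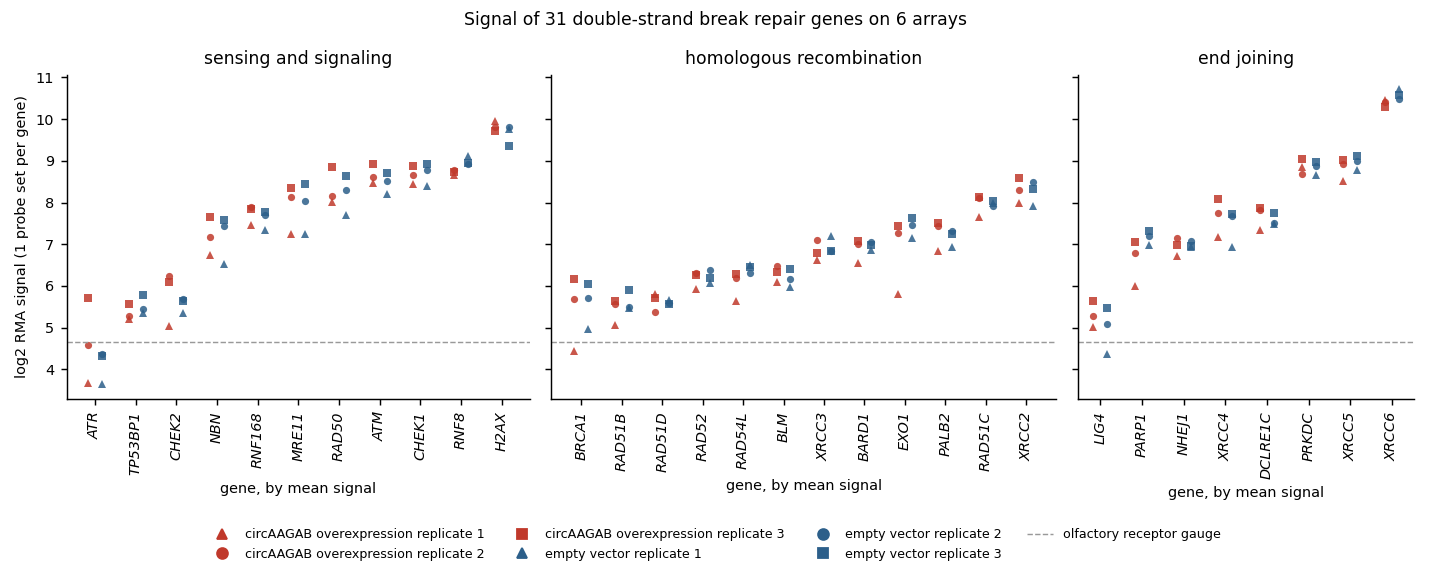
Log2 RMA signal of each of the 31 repair genes on the 6 arrays, in panels by role, with genes placed by mean signal along the x axis. Red marks are *circAAGAB* overexpression, blue marks empty vector, and triangles, circles and squares replicates 1, 2 and 3. The dashed line is the background gauge at 4.65, and only *ATR* averages below it. For 21 of the 31 genes both triangles lie below the other 4 marks.

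The sequence upstream of the annotated start is shown for 4 genes, picked by the replicate differences reported further on. *BRCA1*, *MRE11* and *XRCC4* had the smallest p in their roles between replicate 1 and the other replicates, and *H2AX* had the highest difference. The 250 bases before the start come from RefSeq on GRCh38.p14, in the direction of transcription. Capitals mark the letters of motifs searched on both strands, which were CCAAT, the GC box GGGCGG, the cell cycle homology region TTTGAA, the ETS letters CCGGAAGT and TTTGGCGC or TTTCCCGC for E2F. *BRCA1* lies at chr17:43125365-43125614 on the minus strand, *MRE11* at chr11:94493845-94494094 on the minus strand, *XRCC4* at chr5:83077297-83077546 on the plus strand and *H2AX* at chr11:119095466-119095715 on the minus strand.
BRCA1: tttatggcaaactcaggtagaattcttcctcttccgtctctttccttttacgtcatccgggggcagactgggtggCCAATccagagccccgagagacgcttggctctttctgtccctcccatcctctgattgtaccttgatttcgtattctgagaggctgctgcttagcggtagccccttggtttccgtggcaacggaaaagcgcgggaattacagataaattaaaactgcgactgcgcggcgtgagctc
MRE11: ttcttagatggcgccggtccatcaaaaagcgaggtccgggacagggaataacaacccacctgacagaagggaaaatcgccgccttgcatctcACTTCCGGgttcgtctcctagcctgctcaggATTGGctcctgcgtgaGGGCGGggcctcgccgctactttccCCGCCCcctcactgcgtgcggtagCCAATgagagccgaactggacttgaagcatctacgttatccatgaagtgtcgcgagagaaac
XRCC4: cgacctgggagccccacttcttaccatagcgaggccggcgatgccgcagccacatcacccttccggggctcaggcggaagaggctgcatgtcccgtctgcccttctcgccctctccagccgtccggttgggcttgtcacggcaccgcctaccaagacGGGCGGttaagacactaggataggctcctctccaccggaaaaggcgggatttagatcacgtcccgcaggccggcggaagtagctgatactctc
H2AX: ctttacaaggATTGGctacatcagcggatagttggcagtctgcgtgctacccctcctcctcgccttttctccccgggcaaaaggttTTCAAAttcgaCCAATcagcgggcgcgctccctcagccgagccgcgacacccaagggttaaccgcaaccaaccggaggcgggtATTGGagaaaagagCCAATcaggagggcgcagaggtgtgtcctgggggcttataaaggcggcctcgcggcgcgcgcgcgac

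The *BRCA1* window held 1 CCAAT match, the *XRCC4* window 1 GC box, and the *MRE11* window 2 CCAAT matches, 2 GC boxes and the ETS letters. The *H2AX* window held 4 CCAAT matches and the TTTGAA letters. A promoter window was found for 28 of the 31 repair genes and for 27305 genes in all, and *BRCA1* had 2 windows, of which the downstream one is printed. Counting a gene once if any of its windows held the letters, 21 of the 28 repair genes (75.0%) had a GC box against 46.2% of all genes, and 15 (53.6%) had CCAAT against 37.0%. The ETS letters occurred in 5 of 28 (17.9%) against 4.13%, among them 3 of the 8 genes with a window that were called lower in replicate 1 and 2 of the other 20. TTTGAA occurred in 2 of 28 (7.14%) against 16.1%, and the E2F letters, present in 2.36% of all genes, occurred in none of the 28. The 27305 genes were not limited to the 17687 named on the array, and shares among those alone were not counted. These are matches of letters, not sites of binding, and a link between them and the replicate differences was not tested.

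The first comparison asked whether *circAAGAB* overexpression changed the RNA of break repair genes. It moved none of the 31 past a threshold. Overexpression was above empty vector for 15 genes (48.4%) and below for 16, beside 49.6% above and 50.4% below over all probe sets, and the median difference was -0.00082, beside -0.0017 over all 21448 probe sets. Every adjusted p was 1.00 by limma with Benjamini-Hochberg adjustment, where 0.00466% of all probe sets were called, and 0 of 31 had an unadjusted p under 0.05, where the share over all probe sets was 2.18%. The study's criteria of a 1.5-fold change with such a p, met by 0.373% of all probe sets, were met by none either. The smallest unadjusted p was 0.0768, for *PARP1*. For 3 genes (9.68%), *RNF8*, *RAD54L* and *XRCC6*, every overexpression array was below every empty vector array, beside 4.04% of all probe sets lower in this way and 7.9% in either direction.

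Among the sensing and signaling genes the median difference was 0.13, with 7 above 0 and 4 below. *ATR*, the kinase of replication stress, had signals of 3.68, 4.59 and 5.70 with *circAAGAB* overexpression in replicates 1, 2 and 3, against 3.65, 4.38 and 4.32 with empty vector. Its difference of 0.54 (95% interval -0.52 to 1.60) was the highest of the 31 and came from replicate 3, where the groups were 1.38 apart. *ATM*, the apical kinase of the break response, had 8.47, 8.62 and 8.93 with overexpression, against 8.22, 8.52 and 8.71 with empty vector. It was higher with overexpression in each replicate number, by 0.10 to 0.26, and its difference of 0.19 had an interval of -0.25 to 0.63. *CHEK2*, the checkpoint kinase downstream of *ATM*, had 5.04, 6.24 and 6.08 with overexpression, against 5.34, 5.70 and 5.64 with empty vector (difference 0.23). *CHEK1*, the checkpoint kinase downstream of *ATR*, had 8.45, 8.66 and 8.88 with overexpression, against 8.39, 8.78 and 8.92 with empty vector (-0.033). *CHEK2* was lower with overexpression in replicate 1 and higher in the other two, while *CHEK1* differed by at most 0.12 in any replicate.

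The 3 subunits of the break-binding complex were nearly level between the groups. *MRE11*, its nuclease, had 7.24, 8.13 and 8.36 with overexpression, against 7.25, 8.05 and 8.44 with empty vector (difference -0.00082, 95% interval -0.85 to 0.85). *RAD50*, which bridges the ends, had 8.01, 8.16 and 8.85 with overexpression, against 7.70, 8.30 and 8.63 with empty vector (0.13). *NBN*, which binds *ATM*, had 6.75, 7.17 and 7.65 with overexpression, against 6.53, 7.45 and 7.59 with empty vector (0.0026). In all of these the lowest value of each group was its replicate 1 array.

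The chromatin proteins of the signaling group were less variable. *H2AX*, the phosphorylated histone variant, had 9.96, 9.81 and 9.71 with overexpression, against 9.75, 9.80 and 9.37 with empty vector (difference 0.19, interval -0.21 to 0.58). *RNF8*, the ubiquitin ligase that first marks chromatin at the break, had 8.66, 8.77 and 8.74 with overexpression, against 9.11, 8.94 and 8.95 with empty vector. Its overexpression arrays were all below its empty vector arrays, and the difference of -0.27 (interval -0.59 to 0.042) had an unadjusted p of 0.0807. *RNF168*, the ligase that extends this mark, had 7.45, 7.89 and 7.85 with overexpression, against 7.34, 7.70 and 7.77 with empty vector (0.13). *TP53BP1*, which shields ends from resection, had 5.21, 5.28 and 5.56 with overexpression, against 5.36, 5.45 and 5.79 with empty vector (-0.18). *TP53BP1* was lower with overexpression in every replicate number and *RNF168* higher, and neither passed the test.

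Among the homologous recombination genes the median difference was -0.067, with 4 above 0 and 8 below. *BRCA1*, which promotes resection and recombination, had 4.45, 5.70 and 6.16 with overexpression, against 4.97, 5.70 and 6.05 with empty vector (difference -0.14, interval -1.16 to 0.89). *BARD1*, its obligate partner, had 6.56, 6.995 and 7.07 with overexpression, against 6.87, 7.04 and 6.97 with empty vector (-0.087). *PALB2*, which works with *BRCA1* in recombination, had 6.83, 7.44 and 7.51 with overexpression, against 6.94, 7.32 and 7.24 with empty vector (0.094). For all of these the groups overlapped and replicate 1 was the lowest array of each group. *EXO1*, a nuclease of long-range resection, had 5.81, 7.28 and 7.43 with overexpression, against 7.14, 7.46 and 7.62 with empty vector. Its difference of -0.57 (interval -1.49 to 0.35) was the lowest of the 31, and the overexpression array of replicate 1 stood 1.33 below its counterpart while the other pairs differed by 0.18 and 0.19. *RAD54L*, a motor protein that helps strand exchange, had 5.64, 6.18 and 6.30 with overexpression, against 6.51, 6.31 and 6.46 with empty vector. Its arrays did not overlap, and the difference of -0.38 (interval -0.84 to 0.069) had an unadjusted p of 0.0862.

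None of *RAD51B*, *RAD51C*, *RAD51D*, *XRCC2* and *XRCC3*, whose products form complexes that support strand exchange, passed the test between the groups. *RAD51B* had 5.06, 5.58 and 5.64 with overexpression, against 5.47, 5.49 and 5.90 with empty vector (difference -0.20). *RAD51D* had 5.80, 5.38 and 5.72 with overexpression, against 5.66, 5.59 and 5.58 with empty vector (0.025). *XRCC2* had 7.99, 8.29 and 8.58 with overexpression, against 7.93, 8.48 and 8.32 with empty vector (0.044). The groups overlapped for each. *XRCC3* had 6.63, 7.09 and 6.79 with overexpression, against 7.19, 6.85 and 6.83 with empty vector (-0.12). *RAD52*, an annealing protein, had 5.92, 6.30 and 6.27 with overexpression, against 6.06, 6.39 and 6.19 with empty vector (-0.048). *BLM*, a helicase that dissolves recombination intermediates, had 6.09, 6.48 and 6.34 with overexpression, against 5.98, 6.18 and 6.41 with empty vector (0.11). The sign of *XRCC3* and *BLM* changed between replicate numbers, and *RAD51C* had a difference of -0.0096.

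The end joining genes were split evenly, 4 above 0 and 4 below, with a median difference of -0.013. *PARP1*, which senses strand breaks and also serves a backup end joining route, had 6.005, 6.80 and 7.06 with overexpression, against 6.99, 7.19 and 7.32 with empty vector. It was lower with overexpression in each replicate number, by 0.98, 0.39 and 0.26, and its difference of -0.54 had an interval of -1.16 to 0.074. With the replicate number as a block *PARP1* was the only gene of the 31 at p under 0.05 (unadjusted p of 0.0176, adjusted p = 0.724 by limma), where 6.79% of all probe sets were. *XRCC6*, the smaller Ku subunit, had 10.46, 10.40 and 10.28 with overexpression, against 10.72, 10.48 and 10.58 with empty vector. Its arrays did not overlap and the difference was -0.21 (interval -0.54 to 0.12, unadjusted p of 0.182 by limma). *XRCC5*, the larger Ku subunit, had 8.53, 8.91 and 9.01 with overexpression, against 8.79, 8.99 and 9.11 with empty vector (-0.15). *PRKDC*, the kinase that Ku recruits, had 8.85, 8.69 and 9.04 with overexpression, against 8.67, 8.88 and 8.98 with empty vector (0.017, interval -0.36 to 0.39).

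The ligase and its scaffold had positive differences. *LIG4*, the ligase of end joining, had 5.02, 5.27 and 5.64 with overexpression, against 4.36, 5.08 and 5.48 with empty vector (difference 0.34, interval -0.34 to 1.01). *XRCC4*, its scaffold, had 7.18, 7.74 and 8.07 with overexpression, against 6.94, 7.68 and 7.73 with empty vector (0.21, interval -0.45 to 0.88). Both were higher with overexpression in each replicate number, and neither passed the test. *DCLRE1C*, the nuclease that opens hairpin ends, differed by 0.088 and *NHEJ1*, a ligation cofactor, by -0.043.

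**Figure D2:**
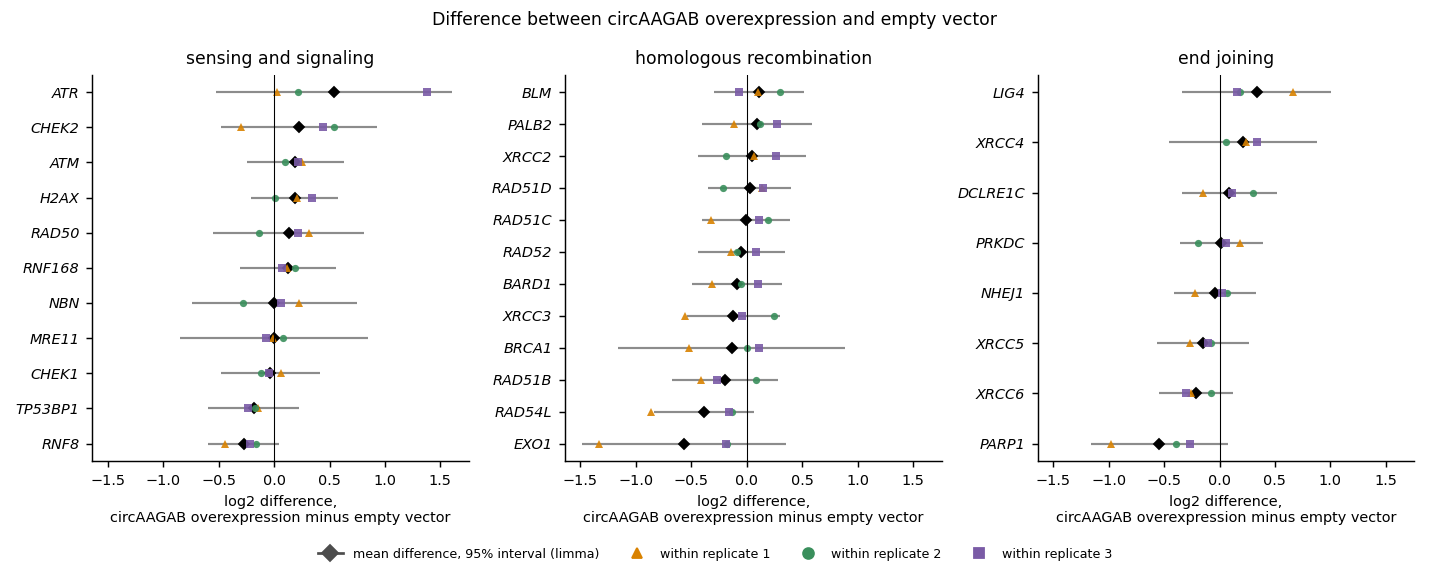
Log2 difference, *circAAGAB* overexpression minus empty vector, for the 31 repair genes in panels by role. Black diamonds with grey lines are the mean difference with its 95% interval from limma (3 arrays in each group), and triangles, circles and squares are the difference within replicates 1, 2 and 3. All intervals cross 0, with *EXO1* lowest at -0.57 and *ATR* highest at 0.54.

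How far these data bound a change differed between genes. The intervals come from the fit without the replicate block, in which differences between replicate numbers count as spread. With the block the SE was 0.11 against 0.37 for *MRE11* and 0.16 against 0.44 for *BRCA1*. For *XRCC3* it changed little, at 0.173 against 0.181. The counts of intervals that follow were not made with the block. Without the block, the 95% interval lay within 1.5-fold in both directions for 15 of the 31 genes. It reached a 1.5-fold rise for 10 genes and a 1.5-fold fall for 9, and 2-fold in some direction for 5. The difference kept its sign in all 3 replicate numbers for 13 of 31 genes (41.9%), beside 30.1% of all probe sets. The median difference of the 31 genes was -0.14 within replicate 1, -0.00067 within replicate 2 and 0.075 within replicate 3, while over all probe sets it was 0.021, -0.016 and 0.0054. The recombination genes were at -0.32 in replicate 1, -0.025 in replicate 2 and 0.091 in replicate 3. Within replicate 1, overexpression was 1.5-fold or more below empty vector for *EXO1*, *PARP1* and *RAD54L* and above it for *LIG4*.

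The second comparison set replicate 1 against replicates 2 and 3, in a fit that kept the group as a term. Replicate 1 was chosen because its arrays were known to stand apart from the others, so the calls are read beside their share over all probe sets. The repair genes were lower in replicate 1. Of the 31 genes 26 (83.9%) were below 0, beside 40.6% of all probe sets, 5 (16.1%) were above, beside 59.4%, and the median difference was -0.35, beside 0.089 over all probe sets and 0.034 over those above the background gauge. An unadjusted p under 0.05 was reached by 20 genes (64.5%), all lower, beside 36.4% of all probe sets in either direction and 16.9% lower. By adjusted p under 0.05, 9 genes (29.0%) were called, all lower, beside 14.6% in either direction and 9.26% lower (limma, Benjamini-Hochberg over all probe sets). For 21 genes (67.7%) both replicate 1 arrays were below the other 4 arrays, beside 19.5% of all probe sets, and no gene had both above, beside 26.1% (45.6% in either direction).

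Of the sensing and signaling genes 9 of 11 were below 0, with a median of -0.41, and 4 were called. *MRE11* averaged 7.24 in replicate 1 and 8.24 in replicates 2 and 3, a difference of -1.002 (SE 0.15, adjusted p = 0.0143). *NBN* averaged 6.64 in replicate 1 and 7.46 in replicates 2 and 3 (-0.82, SE 0.17, adjusted p = 0.0246). *RAD50* averaged 7.85 in replicate 1 and 8.49 in the others (-0.63, SE 0.21) and missed the threshold, with an adjusted p of 0.0721, so the whole complex lay lower but 1 subunit was not called. *ATR* averaged 3.67 in replicate 1 and 4.75 in the others (-1.08, SE 0.30, adjusted p = 0.0480), near or below the background gauge in both sets. *CHEK2* averaged 5.19 in replicate 1 and 5.91 in the others (-0.73, SE 0.19, adjusted p = 0.0398). *RNF168*, *CHEK1* and *ATM* were lower by 0.41, 0.39 and 0.35, with adjusted p of 0.0544, 0.0781 and 0.113, and *TP53BP1* had a difference of -0.24. *H2AX* and *RNF8* were the exceptions, at 0.19 and 0.037, and neither was called.

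Of the recombination genes 10 of 12 were below 0, with a median of -0.31, and 3 were called. *BRCA1* averaged 4.71 in replicate 1 and 5.90 in replicates 2 and 3, and its difference of -1.20 (SE 0.20, 95% interval -1.66 to -0.74, adjusted p = 0.0165) was the lowest of the 31. Its replicate 1 signals, 4.45 with overexpression and 4.97 with empty vector, lay near the background gauge of 4.65. *EXO1* averaged 6.48 in replicate 1 and 7.45 in the others (-0.97, SE 0.24, adjusted p = 0.0366), and *PALB2* averaged 6.89 in replicate 1 and 7.38 in the others (-0.49, SE 0.13, adjusted p = 0.0433). These resection and recombination genes thus had the same direction. *XRCC2* was at -0.46, *RAD51B* at -0.38, *BLM* at -0.32, *BARD1* at -0.31 and *RAD52* at -0.30, all with an unadjusted p under 0.05 and none with an adjusted one. *RAD54L* at -0.24 and *RAD51C* at -0.23 did not reach either. *RAD51D* and *XRCC3* were at 0.17 and 0.021.

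Of the end joining genes 7 of 8 were below 0, with a median of -0.34, and 2 were called. *XRCC4* averaged 7.06 in replicate 1 and 7.81 in replicates 2 and 3 (-0.75, SE 0.14, adjusted p = 0.0188), and *LIG4* averaged 4.69 in replicate 1 and 5.37 in the others (-0.67, SE 0.19, adjusted p = 0.0477). The ligase and its scaffold were thus both lower. The replicate 1 signals of *LIG4*, 5.02 with overexpression and 4.36 with empty vector, lay near the background gauge of 4.65. *PARP1* at -0.60 and *XRCC5* at -0.35 had adjusted p of 0.0560 and 0.0895. *DCLRE1C* at -0.32, *NHEJ1* at -0.21 and *PRKDC* at -0.14 did not reach an unadjusted p under 0.05, and *XRCC6* was at 0.15. The Ku subunits therefore had opposite signs, with neither called.

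**Figure D3:**
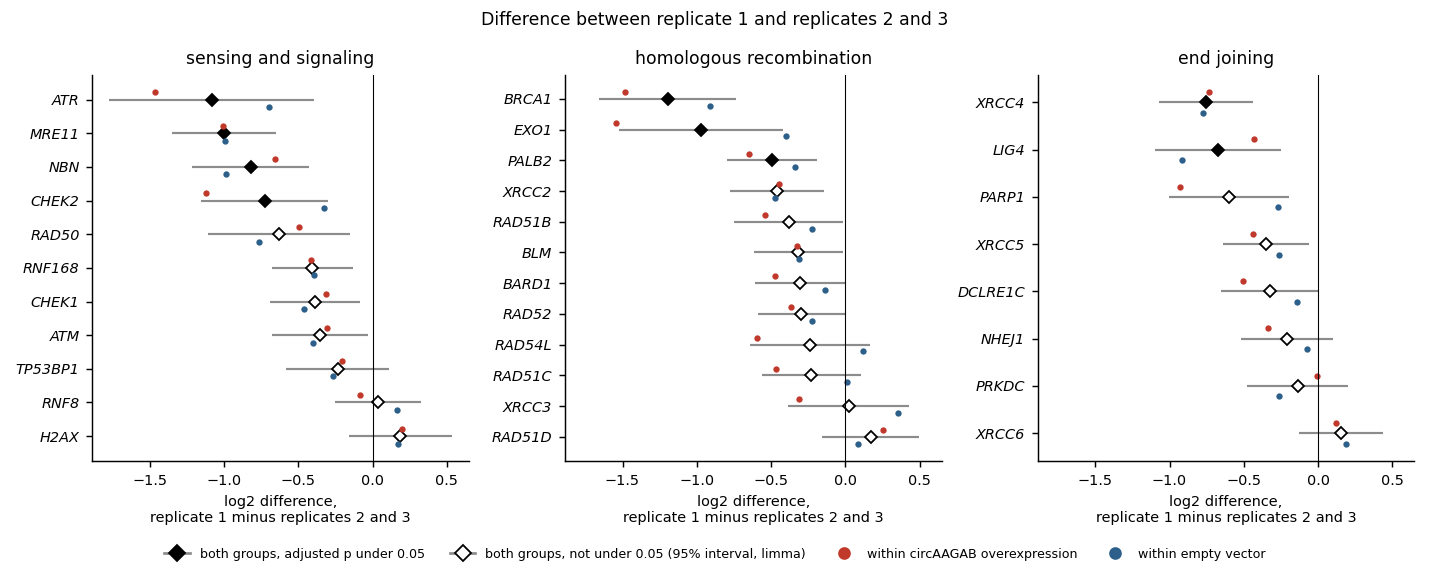
Log2 difference, replicate 1 minus replicates 2 and 3, for the 31 repair genes in panels by role. Diamonds with grey lines are the limma estimate over both groups with its 95% interval (2 arrays against 4), filled where the adjusted p is under 0.05. Red points are the difference within *circAAGAB* overexpression and blue points within empty vector. All 9 filled diamonds lie below 0, *BRCA1* lowest at -1.20.

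The fall in replicate 1 was present within each group. It had the same sign within *circAAGAB* overexpression and within empty vector for 27 of the 31 genes, and 24 were lower in both. The same shares over all probe sets were not counted, and the replicate 1 arrays deviated together over all of them (correlation 0.603). The median difference was -0.45 within *circAAGAB* overexpression and -0.27 within empty vector, beside 0.094 and 0.054 over all probe sets. In 19 of the 31 genes the size of the replicate 1 difference was larger within overexpression, a share also not counted over all probe sets. *EXO1* fell by 1.55 within overexpression and by 0.40 within empty vector, and *CHEK2* fell by 1.12 within overexpression and by 0.33 within empty vector. *MRE11* fell by 1.01 within overexpression and by 0.997 within empty vector, so it was as low in both replicate 1 arrays. *LIG4* went the other way in size, with 0.43 lower within overexpression and 0.92 lower within empty vector. The counts that follow, with an array left out, stand without the share of all probe sets. Without the overexpression array of replicate 1, 9 genes had an unadjusted p under 0.05 and 0 an adjusted one, and without empty vector replicate 3 2 genes were called, *BRCA1* and *MRE11*. Without overexpression replicate 3 there were 3 calls, without empty vector replicate 2 there were 5, without overexpression replicate 2 there were 6 and without empty vector replicate 1 there were 8, and *BRCA1* and *MRE11* were among them each time.

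**Figure D4:**
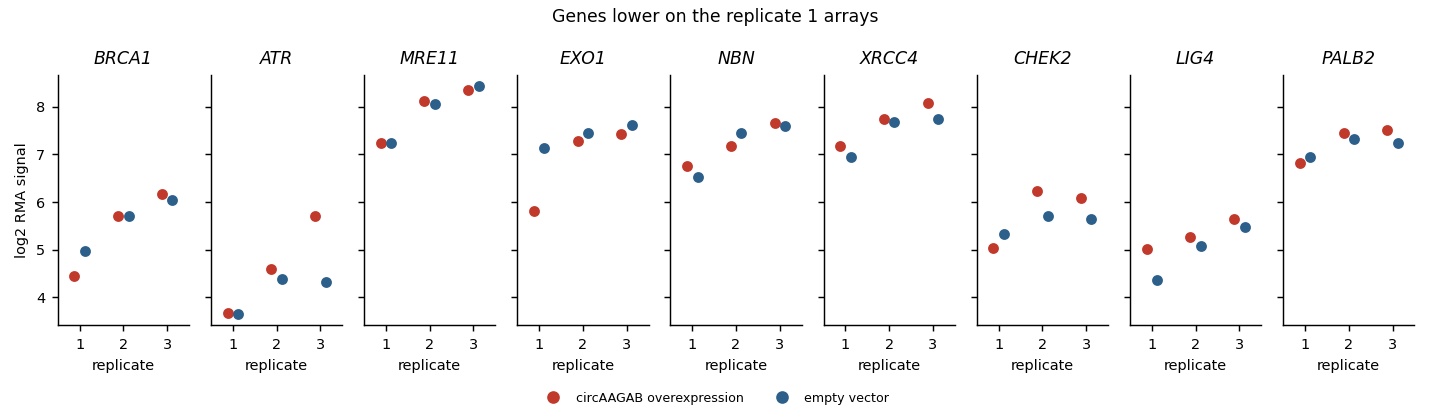
Log2 RMA signal of the 9 repair genes called lower in replicate 1, by replicate number on the x axis. Red points are *circAAGAB* overexpression and blue points empty vector. In every panel both replicate 1 points lie below the other 4, and the widest gaps between red and blue at 1 number are 1.38 for *ATR* in replicate 3 and 1.33 for *EXO1* in replicate 1.

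Signal strength moved with the replicate 1 difference across the array. With all probe sets split by mean signal into 5 equal bins from dim to bright, its median was 0.17, 0.20, 0.15, -0.040 and -0.069. None of the 31 repair genes was in the dimmest bin. The 2 in the next bin had a median of -0.88, the 8 in the middle bin -0.31, the 10 in the one above it -0.45 and the 11 in the brightest -0.35, each below the median of its bin. Called lower in these bins were 2, 2, 4 and 1 of them, beside 5.48%, 9.98%, 16.6% and 12.4% of all probe sets there. Below 0 were 2, 7, 9 and 8 of them, beside 27.9%, 35.0%, 53.5% and 58.7%. Markers of other cell types had replicate 1 medians of 0.24 over 7 luminal, 0.31 over 7 blood cell and 0.37 over 6 fibroblast markers. The 8 MDA-MB-231 markers had a median of -0.058. Above 0 were 5 luminal, 5 blood cell and 5 fibroblast markers, and the lowest differences were -0.57, -0.29 and -0.38. Only 3 luminal, 2 blood cell and 3 fibroblast markers averaged above the background gauge. In the replicate 1 arrays the median signal of the luminal markers was 5.09 with overexpression and 4.98 with empty vector, beside 4.45 to 4.64 in the other 4 arrays. That of the blood cell markers was 4.79 with overexpression and 4.52 with empty vector, beside 4.23 to 4.60, so the empty vector value lay inside that range. That of the fibroblast markers was 5.06 with overexpression and 4.91 with empty vector, beside 4.53 to 4.65. The part of signal range, or of these markers, in the lower repair gene signals was not tested.

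A further 59 genes of break repair, of 68 listed, were measured outside the 31. Between the groups 34 of them were above 0 and 25 below, the median was 0.049, and none had p under 0.05 by limma. In the fit blocked by replicate, 6 passed this p, all higher and none after adjustment, beside 6.79% of all probe sets. The smallest p belonged to *RPA1*, which coats single-stranded DNA, at -0.27, *RAD51AP1*, a helper of strand invasion, at 0.49, and *SFR1*, another recombination cofactor, at 0.33. In replicate 1, 45 of 59 were below 0 with a median of -0.36, and 32 had p under 0.05, of which 30 were lower and 2 higher. Over all probe sets 36.4% had such a p in either direction and 16.9% had it lower. After adjustment 18 were called, beside 14.6% of all probe sets. Not all were lower, since *PAXX* was called at 0.46 (adjusted p = 0.0431 by limma). *SMC5*, of the SMC5/6 complex, was at -1.38, *RECQL*, a helicase, at -1.28 and *WRN*, the helicase and nuclease lost in Werner syndrome, at -0.87 (adjusted p = 0.0132 for each by limma). Their median was thus close to the -0.35 of the 31.

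Since many recombination genes are transcribed in S and G2 phase, 39 genes of these phases were set beside them. Between the groups their median was -0.016 and none had p under 0.05. With the replicate block 3 had, all lower and none after adjustment, beside 6.79% of all probe sets. The smallest p without the block belonged to the helicase subunits *MCM7* (-0.31) and *MCM4* (-0.20) and to *UHRF1* (-0.30), which keeps DNA methylation at the fork. In replicate 1 their median was -0.054, 15 were lower and 5 higher at p under 0.05, and 8 were called. Over all probe sets 36.4% had such a p in either direction, 16.9% had it lower, and 14.6% were called in either direction. For 16 of the 39 genes both replicate 1 arrays were below all the other arrays, beside 19.5% of all probe sets. For 7 genes both were above, beside 26.1%. *KIF11*, the spindle motor, was at -0.87, *CDK1*, the mitotic kinase, at -0.68 and *CCNE2*, a G1/S cyclin, at -0.71. Genes of both directions thus stood in this list, and its median was closer to 0 than that of the repair genes. The part of cycle phase in the lower repair gene signals was not tested. Among 17 damage-induced p53 targets of 20 listed, 13 were above 0 with overexpression and the median was 0.079. *PMAIP1*, a BH3-only apoptosis gene, averaged 9.80 ± 0.08 with overexpression and 9.17 ± 0.17 with empty vector (SD, n = 3 each), a difference of 0.63, and *GADD45A*, a growth arrest gene, had a difference of 0.39. These were the 2 with p under 0.05 (0.00322 and 0.0304 by limma, adjusted p 1.00 for both), and *SESN1* was at 0.31. Over all probe sets 2.18% had such a p. In replicate 1 the targets had a median of -0.15, with *RRM2B*, a ribonucleotide reductase subunit, at -0.78, *TP53INP1* at -0.59 and *MDM2*, the p53 ligase, at -0.56.

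**Figure D5:**
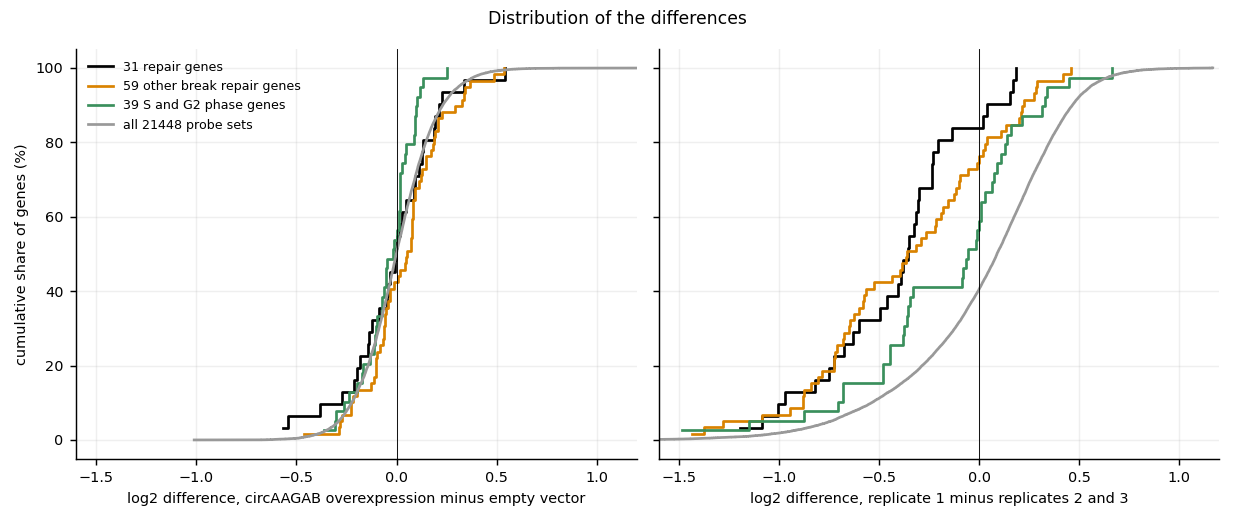
Cumulative share of genes (percent) by log2 difference, for *circAAGAB* overexpression minus empty vector (left) and replicate 1 minus replicates 2 and 3 (right). Black is the 31 repair genes, orange the 59 other break repair genes, green the 39 S and G2 phase genes and grey all 21448 probe sets. The curves lie close together on the left, where the repair genes have a median of -0.00082. On the right the black and orange curves lie to the left of the grey one, with medians of -0.35 and -0.36 beside 0.089.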

How the data were processed

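RNA of 3 *circAAGAB* overexpression and 3 empty vector samples was hybridised to Clariom S arrays. The authors made labelled cDNA with Affymetrix WT kits, normalized the scans by robust multichip averaging (RMA) and deposited log2 values, which were used as deposited. The software, its version and the array annotation behind them are not stated in any source read. RMA makes array distributions alike, though not identical here, so a shift of all genes could be hidden. Arrays carry no read depth, and their number limits precision.

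Probe sets were named by symbol through the array's platform annotation, updated with the GRCh38.p14 gene table (17709 named, 3739 unnamed). All 21448 were fitted in R 4.3.3 by limma 3.58.1 (lmFit, eBayes, two-sided, Benjamini-Hochberg), once by group and once by group plus an indicator of replicate 1. Fits were tested on simulated data. Replicate numbers come from the labels. Same-numbered arrays deviated together (correlations over all probe sets of 0.603, 0.189 and 0.549, each over 0.1), so by this rule the numbers pair the arrays. Over the 31 genes alone the values were 0.572, -0.0425 and 0.645. The main fit left this pairing out, since the study's methods give an unpaired test, and a block fit was an alternative. Values in every array are given for genes at p under 0.05 in either fit, with groups that do not overlap, at the 2 highest or lowest differences of a role, and for *ATM*, *BRCA1*, *PRKDC*, *H2AX* and *PARP1*. Other lists give the 3 genes of smallest p. Members, lists and tests were chosen with earlier results of these data known. Motifs were searched with Python 3.11.15.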

Additional observations from a re-analysis of the deposited data

How the results depend on the processing

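Between *circAAGAB* overexpression and empty vector, 0 of the 31 genes had an adjusted p under 0.05 in any alternative. The count at an unadjusted p under 0.05, 0 as reported, was 1 with the replicate block (*PARP1*), 1 with the methods' unpaired t-test (*RNF8*), 1 with limma's intensity trend (*RNF8*), and 0 to 2 when arrays were left out. The 2 were *ATR* and *CHEK2*, both higher, without the first overexpression array or both replicate 1 arrays, and *PARP1* and *RAD54L*, both lower, without the third overexpression array. The number of genes above 0, 15 as reported, was 8 without the first empty vector array or without the third overexpression array, and 13 to 22 in the other alternatives. The block changed no other call among the 31, and moved the counts at this p to 6 of the other break repair genes and 3 of the S and G2 phase genes, 0 as reported for both. With the block 6.79% of all probe sets had such a p. Shares for the other alternatives are not set beside these counts. The role medians and the overall median kept within 0.35 of the reported ones, the SD between replicates of the genes' median signal. That SD includes the lower replicate 1 arrays and is larger than each of these medians. Staying within it therefore does not show that a median kept its sign.

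Signs near 0 turned. *NBN* was -0.0083 and *PRKDC* -0.0079 after quantile normalization, and *MRE11* was 0.010 and *RAD51C* 0.0017 after median centring. Leaving out arrays turned the sign of 18 genes, with ranges of *RAD50* -0.12 to 0.34, *NBN* -0.33 to 0.22, *PALB2* -0.032 to 0.31, *XRCC2* -0.11 to 0.19, *XRCC4* -0.044 to 0.46, *PRKDC* -0.072 to 0.10, *RNF168* -0.0045 to 0.27, *CHEK1* -0.19 to 0.080, *MRE11* -0.33 to 0.34, *RAD52* -0.12 to 0.075, *NHEJ1* -0.14 to 0.070, *BRCA1* -0.50 to 0.36, *RAD51C* -0.097 to 0.15, *BARD1* -0.18 to 0.071, *RAD51D* -0.061 to 0.15, *XRCC5* -0.24 to 0.00054, *DCLRE1C* -0.0098 to 0.26 and *XRCC3* -0.25 to 0.10.

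For replicate 1 against replicates 2 and 3, 9 calls as reported became 16 with the trend, 0 with the methods' unpaired t-test (13 at an unadjusted p under 0.05, against 20), 8 after quantile normalization, 12 after median centring, 13 among probe sets above the background gauge and 11 with probe sets averaged by gene. Leaving out 1 array gave 0 to 8 calls, 9 to 18 genes at an unadjusted p under 0.05, and 3 to 7 genes above 0. *XRCC3* was -0.033 and *RNF8* -0.017 after median centring. Leaving out arrays turned the sign of 4 genes, with ranges of *XRCC3* -0.31 to 0.35, *RNF8* -0.088 to 0.16, *RAD51C* -0.47 to 0.0094 and *RAD54L* -0.60 to 0.12. The share of all probe sets called in each alternative is not set beside these counts, so they show only how the calls depend on the processing. Causes were not tested. Another background correction was not run, since probe intensities were not used here. No listed gene had several probe sets, so averaging left their signals as they were. It also left the 3739 unnamed probe sets out of the fit, which changed limma's variance estimates and the number of tests.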
